A study of Mus musculus with 12 samples.

Results

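The 40 genes described here make and assemble the collagen matrix: 19 genes of collagen chains, 7 genes of enzymes and a chaperone that modify and fold those chains, 6 genes of processing and crosslinking enzymes, and 8 genes of matrix glycoproteins and small proteoglycans. They were taken by name from 21887 mouse protein-coding genes, with earlier results of these data known. For each gene the peaks within 50 kb of either end of its gene model were collected, together with the presence of a peak within 1 kb of a gene end, which is called a gene-end peak below. Chromatin immunoprecipitation followed by sequencing (ChIP-seq) had been carried out on 2 mouse melanoma cell lines, line 493, labelled mutant for Kmt2d (the mutant line), and line 971, labelled wild type for Kmt2d (the WT line). Both lines grew in DMEM/F12 medium with serum and antibiotics and carry no other stated treatment, allele or clone history, and the labels do not name the Kmt2d mutation. Each line had 1 library each for H3K4me3, H3K27ac, H3K4me1 and H3K27me3, precipitated with Abcam antibodies, and the labels name 4 input libraries, which were not analysed here.

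Kmt2d encodes a methyltransferase that places H3K4me1 at enhancers. H3K4me3 marks active promoters, H3K27ac active promoters and enhancers, and H3K27me3 Polycomb-repressed chromatin. Collagen chains are hydroxylated and folded into triple helices in the endoplasmic reticulum, trimmed outside the cell and crosslinked by lysyl oxidases. Fibroblasts make most of the collagen of the skin, and melanoma cells in an invasive state are known to express matrix genes as well.

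With 1 library per line and mark there is no replicate, so no difference below was tested and no p-value is given. The line and its Kmt2d genotype cannot be told apart. A missing peak means only that the authors' caller listed none there. The mutant lists held 17987 H3K4me3, 18751 H3K27ac and 3649 H3K4me1 peaks, and the WT lists 23154, 26415 and 17373 peaks of these marks. Counts of differing gene-end states, 2-fold differences and widths over the matrix genes are therefore set beside the same count over all genes, called the background. The main 2-fold counts are also set beside genes of like coverage. These had a mean coverage in the 2 lines within the middle 50% of that of the matrix genes. For counts of genes merely less or more covered, the share over all genes was not computed. Depth is not given in the sources used here.

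Promoter sequences of 6 genes whose H3K4me3 is described below are shown first. No count below uses the sequences, and a link between sequence and H3K4me3 was not tested. A start site was given for 27 of the 40 genes in the RefSeq promoter table (GRCm38.p6, the assembly of mm10). Each line runs 5′ to 3′ from 250 bases before the start to 50 bases after it. Capitals mark 4 motifs searched on both strands: the GC box (GGGCGG), the CCAAT box (CCAAT), the TATA box (TATAAA) and the AP-1 site (TGACTCA), each in either orientation. Col1a2 had H3K4me3 in its neighbourhood in the WT line alone, Pcolce at its start in the WT line alone, Bgn over a longer stretch in the WT line, Col11a1 at its start in the mutant line alone, Col6a3 over a longer stretch in the mutant line, and Col3a1 over its start in both lines.
Col1a2, chr6:4505368-4505667, plus strand: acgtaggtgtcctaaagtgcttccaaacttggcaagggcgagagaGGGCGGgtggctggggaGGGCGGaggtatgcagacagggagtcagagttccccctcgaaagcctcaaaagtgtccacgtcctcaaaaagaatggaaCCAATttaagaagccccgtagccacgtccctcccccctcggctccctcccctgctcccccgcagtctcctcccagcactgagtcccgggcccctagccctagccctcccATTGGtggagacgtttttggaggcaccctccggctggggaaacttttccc
Pcolce, chr5:137611355-137611654, minus strand: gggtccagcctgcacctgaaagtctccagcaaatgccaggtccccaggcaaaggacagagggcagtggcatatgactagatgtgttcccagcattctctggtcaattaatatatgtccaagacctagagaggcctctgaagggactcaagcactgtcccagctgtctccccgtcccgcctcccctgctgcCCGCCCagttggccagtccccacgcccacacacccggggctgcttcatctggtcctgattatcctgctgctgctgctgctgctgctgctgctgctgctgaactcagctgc
Bgn, chrX:73483351-73483650, plus strand: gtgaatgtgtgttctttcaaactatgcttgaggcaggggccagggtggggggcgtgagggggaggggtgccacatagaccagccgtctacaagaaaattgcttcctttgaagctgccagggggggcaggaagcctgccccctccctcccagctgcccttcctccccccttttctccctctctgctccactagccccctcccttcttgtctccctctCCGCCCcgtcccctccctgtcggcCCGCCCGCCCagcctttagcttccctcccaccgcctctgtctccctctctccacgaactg
Col11a1, chr3:114030290-114030589, plus strand: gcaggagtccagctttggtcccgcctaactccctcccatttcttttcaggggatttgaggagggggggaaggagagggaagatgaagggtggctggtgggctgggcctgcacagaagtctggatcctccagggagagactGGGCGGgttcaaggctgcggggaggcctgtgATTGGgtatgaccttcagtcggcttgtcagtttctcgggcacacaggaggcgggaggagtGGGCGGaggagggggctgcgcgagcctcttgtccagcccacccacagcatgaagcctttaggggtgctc
Col6a3, chr1:90843922-90844221, minus strand: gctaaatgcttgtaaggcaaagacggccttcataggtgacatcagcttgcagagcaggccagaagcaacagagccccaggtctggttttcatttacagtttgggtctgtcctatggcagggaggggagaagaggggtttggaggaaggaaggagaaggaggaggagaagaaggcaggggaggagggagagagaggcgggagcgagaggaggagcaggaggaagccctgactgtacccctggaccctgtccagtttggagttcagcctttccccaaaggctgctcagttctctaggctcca
Col3a1, chr1:45311288-45311587, plus strand: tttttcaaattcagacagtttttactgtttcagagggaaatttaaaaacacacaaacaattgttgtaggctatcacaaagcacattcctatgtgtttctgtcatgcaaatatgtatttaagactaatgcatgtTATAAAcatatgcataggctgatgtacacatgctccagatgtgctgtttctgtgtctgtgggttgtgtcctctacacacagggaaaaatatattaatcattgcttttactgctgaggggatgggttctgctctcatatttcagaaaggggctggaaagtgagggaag

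The Col1a2 window held 2 GC boxes, 2 CCAAT boxes and 13 CpG dinucleotides, and the Col11a1 window 2 GC boxes, 1 CCAAT box and 9 CpG. The Pcolce window held 1 GC box and 5 CpG. The Bgn window held 3 GC boxes, of which a pair overlap, and 9 CpG. Neither the Col6a3 window, with 3 CpG, nor the Col3a1 window, with 0 CpG, held a GC box. The Col3a1 window held a TATA box 117 bases before its start. Over the 30 start-site windows of the 27 genes, a GC box was found in 66.7%, against 46.2% of the 21263 windows of all protein-coding genes. A CCAAT box was found in 36.7% against 38.2%, a TATA box in 16.7% against 12.6%, and an AP-1 site in 3.33%, that of Col6a1, against 4.66%. The median number of CpG was 12.5 per window, against 13 in all windows. A match is a run of letters and not a measured binding site.

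H3K4me3 lay at a gene end of most matrix genes in both lines. It was present at 31 of the 40 genes in the mutant line and at 33 in the WT line, with 30 in both. In at least 1 line 34 of the 40 genes had it, against 12707 of all 21887 protein-coding genes. Col11a1 alone had it only in the mutant line, and Pcolce, Lox and Loxl1 had it only in the WT line. Among the 12707 protein-coding genes with H3K4me3 at a gene end in either line, the background was 2.90% for the mutant line alone and 2.35% for the WT line alone. These stand beside 1 and 3 of the 34 matrix genes with the mark. In the more significant 50% of each list 1 of 30 genes, Col6a3, had the mark in the mutant line alone and 11 had it in the WT line alone, against backgrounds of 0.583% and 14.7%. By RefSeq starts, which the promoter table gives for neither Lox nor Loxl1, Pcolce alone had it only in the WT line. Col1a2, Col7a1, Col12a1, Loxl2, Dcn and Lum had it in neither line. Col12a1 missed only through the limit of 1 kb. It had a peak inside the gene in both lines, 3.15 kb wide in the mutant line and 5.57 kb in the WT line. These lay 1.85 kb and 1.64 kb from its upper end.

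**Figure D1:**
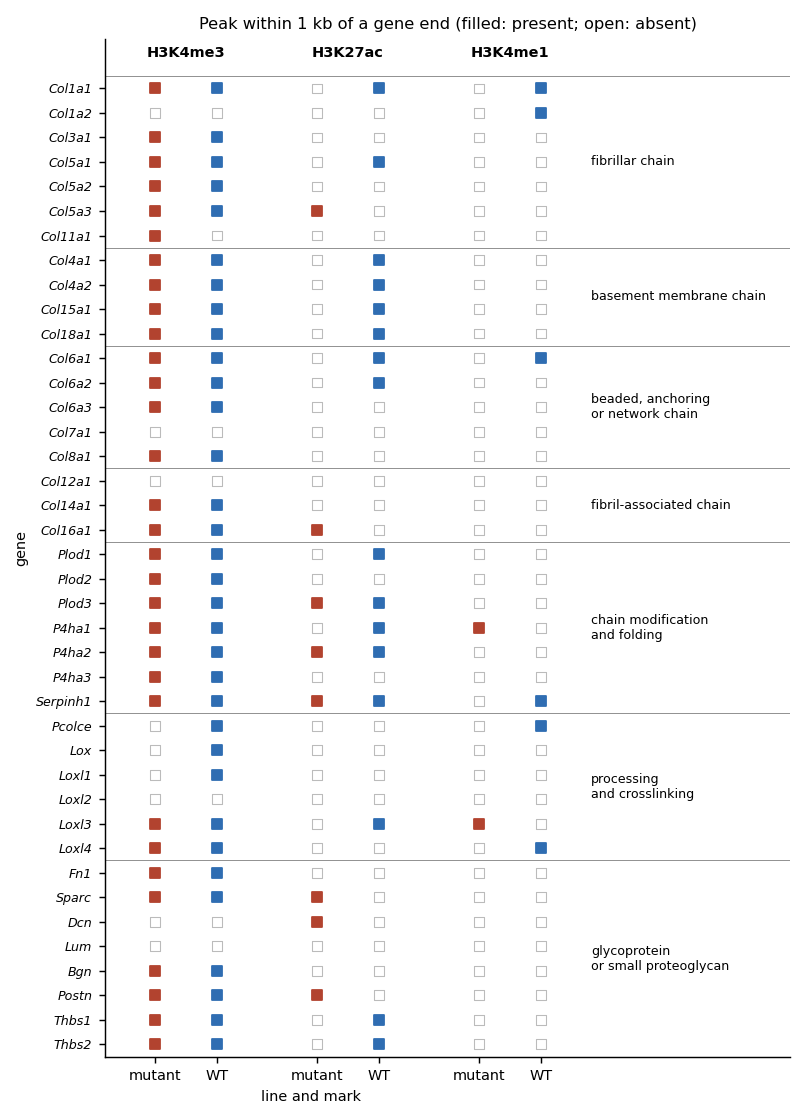
Presence (filled squares) or absence (open squares) of a peak within 1 kb of a gene end for the 40 matrix genes (rows, grouped by role), for H3K4me3, H3K27ac and H3K4me1 (column pairs, mutant line in red left of the WT line in blue). H3K4me3 was present at 31 genes in the mutant line and 33 in the WT line, H3K27ac at 8 and 16, and H3K4me1 at 2 and 6.

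In covered bases, H3K4me3 was lower in the mutant line around 29 genes, higher around 9 and absent from both lines around 2, Dcn and Lum. Summed over the matrix genes it came to 240.1 kb in the mutant line and 303.1 kb in the WT line, which is 79.2%, against 89.5% over all protein-coding genes. The median gene had 5.50 kb in the mutant line and 6.72 kb in the WT line. The median difference, mutant minus WT, was −1.14 kb, against −0.48 kb in genes of like coverage and −0.45 kb in all covered genes. Lower H3K4me3 in the mutant line was therefore common to genes at large. At least 2-fold less was covered around 4 of the 38 genes with any H3K4me3 (10.5%), namely Col1a2, Col5a2, P4ha2 and Lox, against a background of 4.49%. At least 2-fold more was covered around 3 (7.89%), namely Col11a1, Col6a2 and Col6a3, against 2.69%. Of the 20 genes within the middle 50% of coverage, 3 had at least 2-fold less and 2 at least 2-fold more, where genes of like coverage gave 2.09% and 0.287%. With a window of 100 kb 1 of 38 genes had at least 2-fold less and 2 had at least 2-fold more, against backgrounds of 3.76% and 1.89%. Over the gene body with 1 kb on each side 7 of 36 had less and 3 more, against 5.90% and 4.03%. The windows also hold neighbouring genes. Of the peaks in them, 39 of 91 in the mutant line and 66 of 138 in the WT line lay within 1 kb of the matrix gene itself, and 39 and 40 lay at the end of another gene.

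**Figure D2:**
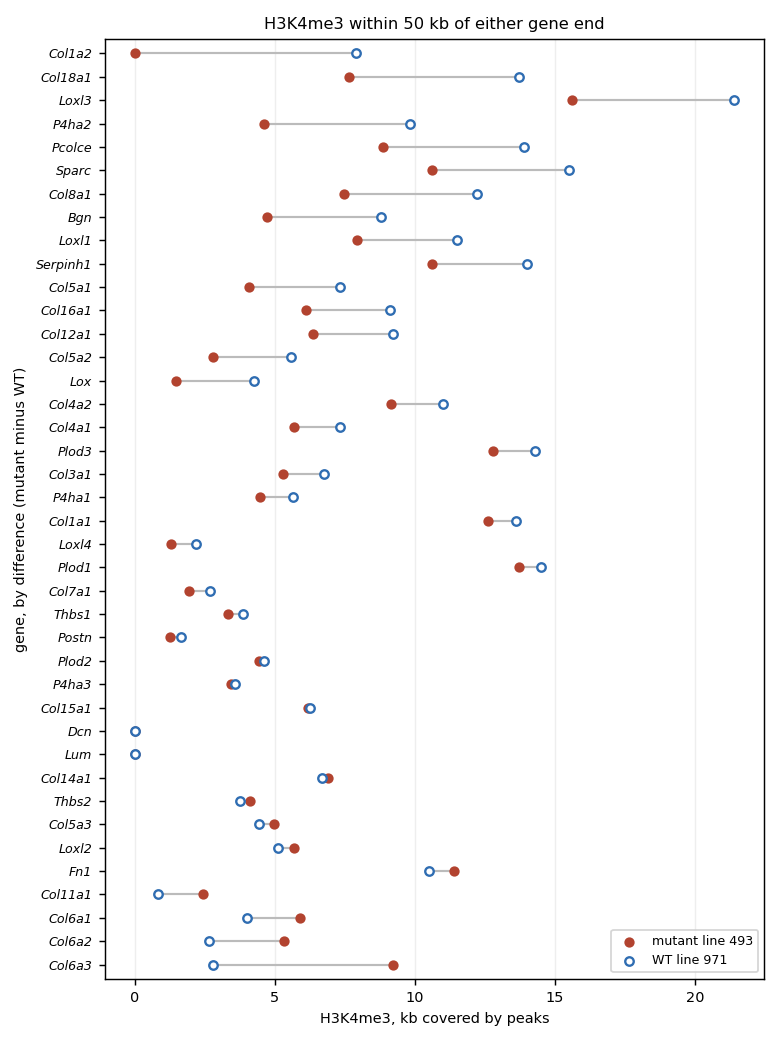
H3K4me3 covered bases (kb, horizontal axis) within 50 kb of either gene end for each of the 40 genes (rows, ordered by mutant minus WT), with filled red points for the mutant line and open blue points for the WT line, 1 library each. Col1a2 has 0 kb in the mutant line and 7.88 kb in the WT line, and Col6a3 has 9.23 kb in the mutant line and 2.78 kb in the WT line.

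Among the 7 fibrillar chains, the genes of collagens I, III, V and XI, the largest difference was at Col1a2. Col1a2 encodes the chain that joins the Col1a1 product in collagen I. It had 0 kb of H3K4me3 in the mutant line and 7.88 kb in the WT line. Of the 10772 genes with at least 5 kb in the WT line, 0.0928% (10 genes) had 0 kb in the mutant line, and of the 25 matrix genes with at least 5 kb only Col1a2 did. The 7 WT peaks were weak, with scores of 64.1 to 469, and none lay across the RefSeq start. The widest and highest-scoring, of 2.86 kb, lay from −50 to −47.2 kb, at the edge of the window. Of the 7.88 kb, 2.02 kb lay within 1 kb of the gene itself. The score is the authors' −10 log10 p, from 50 upward. The nearest ran from −3.38 to −2.14 kb and from 2.02 to 2.53 kb relative to the start (chromosome 6, 4505618). Another pair, from −18.0 to −17.0 kb and from −15.6 to −14.9 kb, flanked or overlapped 3 WT H3K27ac peaks and 2 WT H3K4me1 peaks between −16.9 and −14.7 kb. Around the gene H3K27ac covered 0.192 kb in the mutant line and 0.772 kb in the WT line, and H3K4me1 0 kb and 1.23 kb. Within the more significant 50% of each H3K4me3 list Col1a2 had none in either line.

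Col1a1, the partner chain, kept a gene-end peak in both lines. Its peak at the lower gene end was 1.69 kb wide with a score of 488 in the mutant line and 3.14 kb wide with a score of 1485 in the WT line. Beyond the upper gene end the order turned. The mutant list held a peak 3.15 kb wide, scored 1617, that lay 2.09 kb past that end (chromosome 11, 94955131 to 94958284), where the WT list held 1 peak of 0.602 kb with a score of 68.4. Over the whole Col1a1 window H3K4me3 covered 12.6 kb in the mutant line and 13.6 kb in the WT line.

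The genes of collagens V and III also carried H3K4me3 in both lines. Col5a1, whose chain sets fibril diameter, had a start-site peak of 4.08 kb in the mutant line and 7.34 kb in the WT line. The mutant peak ran from −1.09 to 2.99 kb and the WT peak from −1.42 to 5.93 kb relative to the start, so the difference lay inside the gene. Col5a2 had 2.79 kb in the mutant line and 5.59 kb in the WT line. Col5a3 was close between the lines, with 4.95 kb in the mutant line and 4.43 kb in the WT line. Col3a1, the main chain of reticular fibres, had 5.28 kb in the mutant line as a single peak over its start and 6.75 kb in the WT line as a pair of peaks. Its neighbour Col5a2 shares part of its window.

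Col11a1 differed the other way. It encodes a chain of collagen XI, best known from cartilage. Its start was covered in the mutant line by a peak 2.43 kb wide, scored 748, from −0.472 to 1.96 kb. The single WT peak was 0.825 kb wide with a score of 161 and lay from 1.24 to 2.06 kb, so at a distance of 2.5 kb both lines counted as marked. Neither H3K27ac nor H3K4me1 was listed within 50 kb of Col11a1 in either line.

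**Figure D3:**
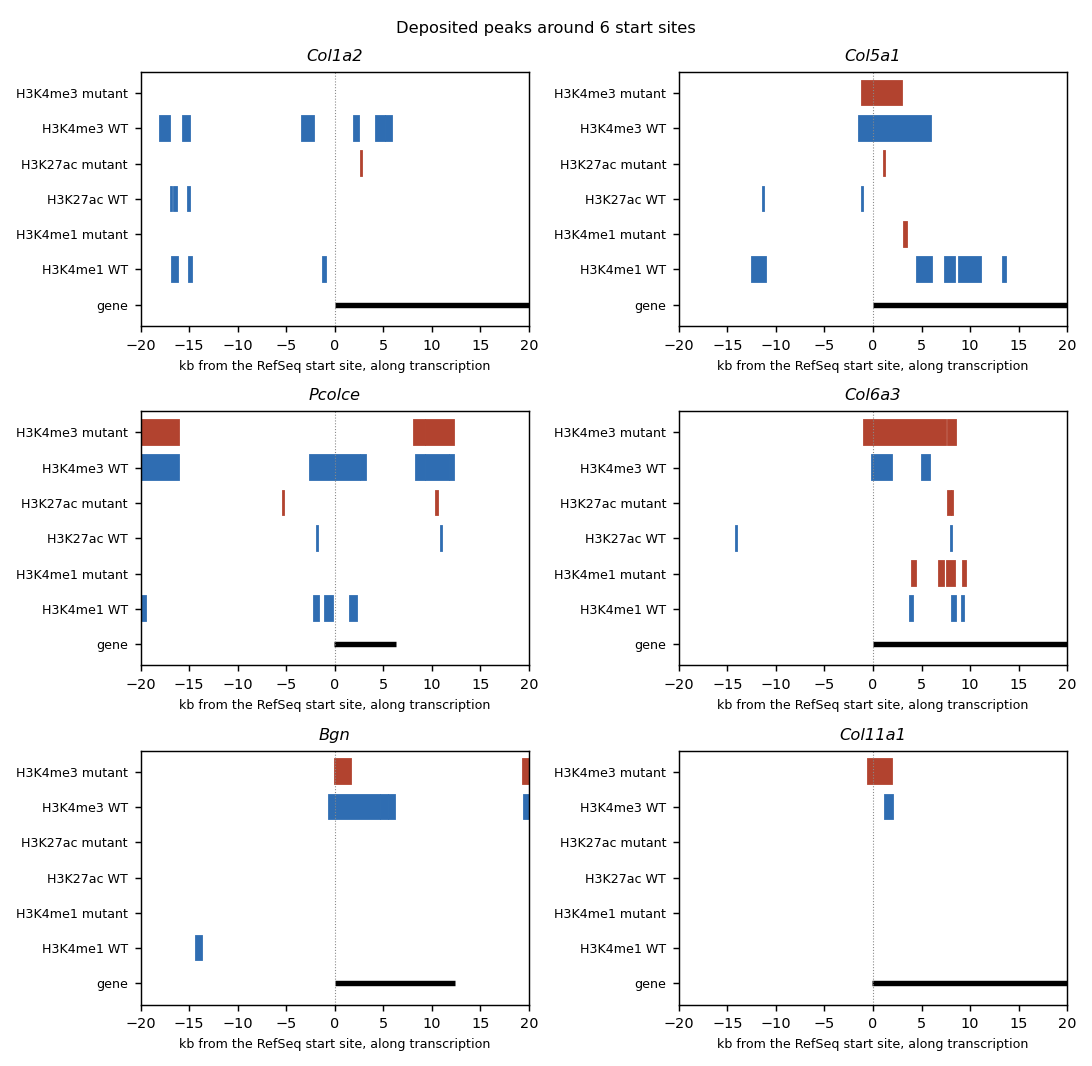
Peaks of H3K4me3, H3K27ac and H3K4me1 (rows, mutant line in red above the WT line in blue) within 20 kb of the RefSeq start site of 6 genes, with distance along transcription in kb on the horizontal axis and the gene as a black bar. The start of Pcolce is covered by H3K4me3 in the WT line alone, and the H3K4me3 peak at the Col6a3 start is 8.41 kb wide in the mutant line and 2.0 kb in the WT line.

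The 4 basement membrane chains form the sheet-like networks under epithelia and around vessels. All kept H3K4me3 at a gene end and were less covered in the mutant line, as were 29 of all 40 matrix genes. Col4a1 and Col4a2, the chains of the main collagen IV trimer, overlap head to head and share a single peak of 4.88 kb in the mutant line and 5.75 kb in the WT line, so they are not separate observations. Col15a1 had 6.17 kb in the mutant line and 6.24 kb in the WT line. Col18a1, which also gives rise to endostatin, had 7.64 kb in the mutant line and 13.7 kb in the WT line. The peak at its upstream start was of similar width in both lines, 4.26 kb in the mutant line and 4.21 kb in the WT line. The difference lay in 6 further WT peaks with scores of 51.3 to 308, of which 5 were inside the gene and none overlapped a mutant peak. Another RefSeq start of the gene (chromosome 10, 77113705), in the middle of the gene beyond the reach of the windows, had H3K4me3 within 1 kb in the WT line alone.

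Collagen VI was the group whose H3K4me3 was higher in the mutant line for every chain in the list. Collagen VI forms beaded microfilaments around cells, and its 3 classical chains come from Col6a1 and Col6a2, near each other on chromosome 10, and Col6a3 on chromosome 1. Col6a3 had 9.23 kb in the mutant line and 2.78 kb in the WT line, and of 16977 covered genes 18 had an increase of that size or larger. The mutant peak at its start was 8.41 kb wide with a score of 3100, a value shared by many of the strongest peaks in each list. The WT peak there was 2.0 kb wide with a score of 269. Col6a2 had 5.33 kb in the mutant line and 2.64 kb in the WT line. Col6a1 had 5.91 kb in the mutant line and 4.0 kb in the WT line. All 3 genes had a wider start-site peak in the mutant line, at Col6a2 3.96 kb against 2.64 kb and at Col6a1 4.65 kb against 3.47 kb. Of these, Col6a3 was also more covered by H3K27ac and H3K4me1 in the mutant line, while Col6a1 and Col6a2 were less covered by both.

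The remaining chains did not move as a group. Col8a1, a short network collagen, had 7.47 kb of H3K4me3 in the mutant line and 12.2 kb in the WT line. Col7a1, the anchoring fibril collagen of the dermal-epidermal junction, had no H3K4me3 peak within its own gene in either line. Of the chains that sit on fibril surfaces, Col12a1 had 6.37 kb in the mutant line and 9.23 kb in the WT line. Col16a1 had 6.10 kb in the mutant line and 9.12 kb in the WT line. Col14a1 differed little in the window, 6.90 kb against 6.69 kb, though its gene-end peak was 1.97 kb wide in the mutant line and 0.724 kb in the WT line.

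All 7 modification and folding genes carried gene-end H3K4me3 in both lines. All 7 were less covered in the mutant line, as were 29 of all 40 matrix genes. The 7 comprise the lysyl hydroxylases Plod1, Plod2 and Plod3, the prolyl 4-hydroxylase subunits P4ha1, P4ha2 and P4ha3, and Serpinh1, the collagen chaperone HSP47. At its start Serpinh1 had a peak of 5.96 kb in the mutant line and 9.40 kb in the WT line. The WT peak reached −4.33 kb upstream of the start without a break, whereas the mutant peak reached −0.612 kb and a separate mutant peak ran from −3.54 to −1.95 kb. P4ha2 had 4.62 kb in the mutant line and 9.81 kb in the WT line, but its own start-site peaks were 1.86 kb and 2.14 kb wide. Most of its difference lay at the end of the neighbouring gene Pdlim4, with a peak of 2.76 kb in the mutant line and 5.87 kb in the WT line. The other 5 genes had 3.42 to 13.7 kb in the mutant line and 3.59 to 14.5 kb in the WT line.

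The processing and crosslinking genes held the 3 genes with a gene-end peak in the WT line alone. Pcolce encodes a protein that speeds removal of the procollagen C-terminal propeptide. Its start was covered in the WT line by a peak 5.17 kb wide, scored 3100, from −2.59 to 2.59 kb (chromosome 5, 137608818 to 137613991), and also reached the end of the neighbouring gene Fbxo24. The mutant list had no peak within 1 kb of the Pcolce gene, while the flanking peaks at the ends of Mospd3 and Lrch4 were present in both lines, at 2.89 kb and 4.0 kb in the mutant line and 2.48 kb and 4.30 kb in the WT line. Within 2.5 kb of a gene end Pcolce counted as marked in both lines, through a mutant peak of 1.11 kb beyond its lower end. Around its start 3 WT H3K4me1 peaks, of 0.539, 0.818 and 0.728 kb, lay inside the H3K4me3 peak, and the mutant list had no H3K4me1 within 50 kb.

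Lox, the lysyl oxidase that starts collagen and elastin crosslinking, had no mutant H3K4me3 peak at the gene and a WT peak of 2.5 kb with a score of 1198 over its upper end. The neighbouring gene Srfbp1 kept its peak in both lines, 2.62 kb in the mutant line and 2.72 kb in the WT line. The states of Lox and Pcolce held in lists cut to equal length and when only the more significant 50% of each list was used. The third gene, Loxl1, an oxidase needed for elastic fibres, rested on a WT peak of 0.399 kb with a score of 50.9, near the lowest score of 50 that the lists hold, and the difference was lost in lists of equal length. Loxl3 had 15.6 kb in the mutant line and 21.4 kb in the WT line in a gene-dense window, and 5.26 kb against 6.62 kb within 1 kb of the gene itself. Loxl4 had 1.29 kb in the mutant line and 2.19 kb in the WT line. Loxl2 had 5.68 kb in the mutant line and 5.11 kb in the WT line, none of it in its own gene.

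The glycoproteins and small proteoglycans split. Sparc, a collagen-binding glycoprotein, had a start-site peak of 4.42 kb in the mutant line, with a further peak of 1.75 kb close by, and a single peak of 10.3 kb in the WT line. Bgn, biglycan, had a peak of 1.61 kb with a score of 161 that began 0.026 kb after its start in the mutant line, and one of 5.28 kb with a score of 3100 across its start in the WT line. Fn1, fibronectin, differed the other way, with a gene-end peak of 8.77 kb in the mutant line and 6.30 kb in the WT line. Thbs1, thrombospondin 1, had 3.32 kb in the mutant line and 3.85 kb in the WT line, and Thbs2 had 4.12 kb and 3.74 kb. Postn, periostin, had 1.27 kb in the mutant line and 1.64 kb in the WT line. Its upstream RefSeq start had H3K4me3 within 1 kb in both lines, and its other start (chromosome 3, 54361107) in the WT line alone. Dcn and Lum, the neighbouring genes of decorin and lumican on chromosome 10, had no H3K4me3 within 50 kb in either line.

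Peak width was compared at the gene ends. Of the 30 genes with a gene-end H3K4me3 peak in both lines, the widest one was narrower in the mutant line at 19 and wider at 11. Over all 12040 genes with such a peak in both lines it was narrower at 7085 and wider at 4943, a similar split. It was at least 1.5-fold narrower at 5 genes, Col1a1, Col5a1, Serpinh1, Sparc and Bgn, against a background of 5.07% of 12040 genes. It was at least 1.5-fold wider at 3 genes, Col6a2, Col6a3 and Col14a1, against 3.84%. The median width over the 30 genes was 4.02 kb in the mutant line and 3.75 kb in the WT line, and over the 12040 genes 2.69 kb and 2.80 kb.

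H3K4me1 showed the largest shortfall. The mutant line had less of it around 34 of the 36 genes with any, and the 2 exceptions were Col3a1 and Col6a3. At least 2-fold less was covered around 33 genes (91.7%), against a background of 71.9% of 11079 covered genes and 70.3% of genes of like coverage. At least 2-fold more was covered around Col3a1 and Col6a3 (5.56%), against 14.0% and 9.65%. Of the 20 genes within the middle 50% of coverage, 18 had at least 2-fold less and 1 at least 2-fold more. The summed coverage was 12.72 kb in the mutant line and 120.1 kb in the WT line, which is 10.6%, against 22.2% over all protein-coding genes. The median gene had 0.100 kb in the mutant line and 1.44 kb in the WT line, and 16 genes had none in the mutant line. The median difference, mutant minus WT, was −1.31 kb, against −0.664 kb in all covered genes and −0.875 kb in genes of like coverage. The WT list is far longer than the mutant list. When the WT list was cut to its 3649 most significant peaks, the length of the mutant list, 12 of 24 covered matrix genes had at least 2-fold less in the mutant line and 7 at least 2-fold more, against 36.1% and 50.8% of all covered genes. The matrix sum was then 12.7 kb in the mutant line and 43.4 kb in the WT line, or 29.3%, against 77.8% over all genes.

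**Figure D4:**
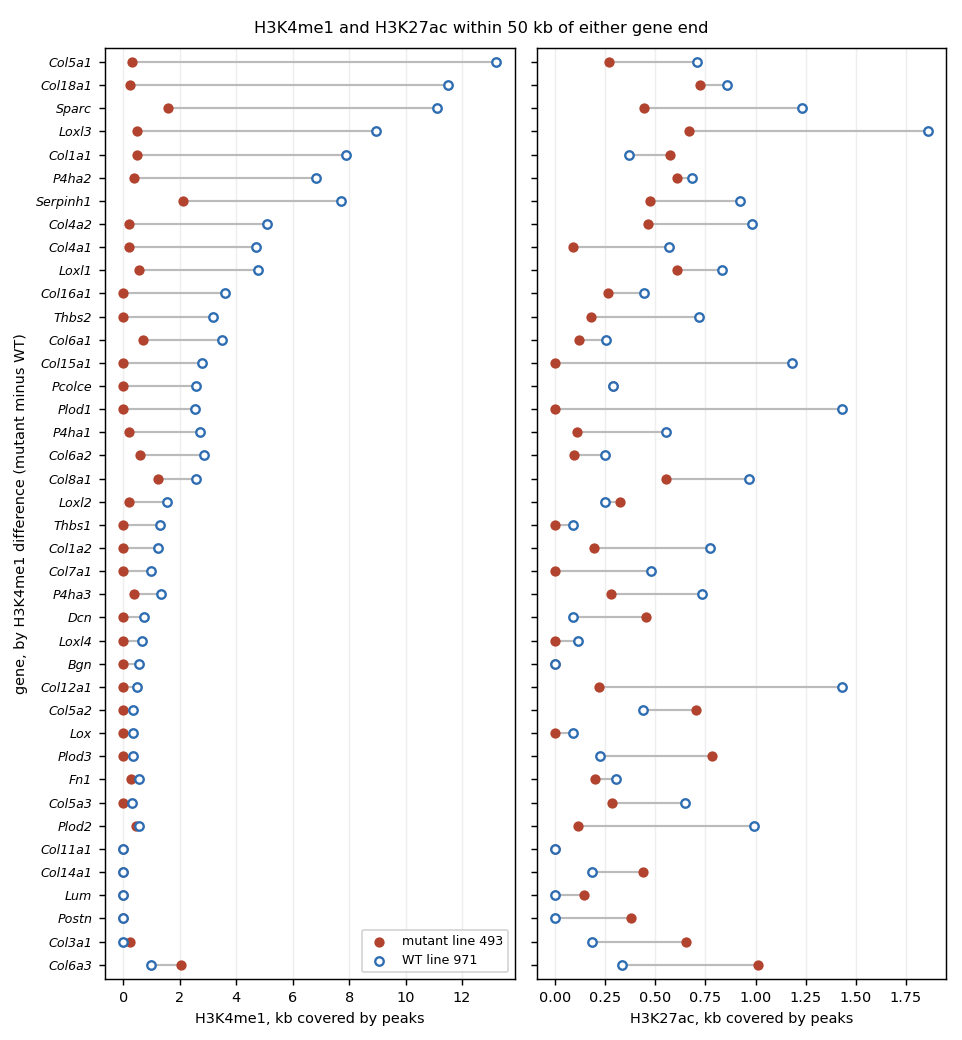
H3K4me1 (left panel) and H3K27ac (right panel) covered bases in kb within 50 kb of either gene end, for each of the 40 genes (rows, ordered by the H3K4me1 difference), with filled red points for the mutant line and open blue points for the WT line, 1 library each. Col5a1 has 0.319 kb of H3K4me1 in the mutant line and 13.2 kb in the WT line, while Col3a1 and Col6a3 at the bottom have more of both marks in the mutant line.

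Of the 6 largest H3K4me1 differences, 3 were at genes with many separate WT peaks inside the gene, Col5a1, Col18a1 and Sparc. Col5a1 had 1 mutant peak of 0.319 kb and 16 WT peaks that together covered 13.2 kb, of which 13 lay in the gene. A run of 4 WT peaks extended from 4.58 to 13.7 kb inside it, next to the stretch where its WT H3K4me3 peak ran on. Col18a1 had 1 mutant peak of 0.219 kb and 16 WT peaks with 11.5 kb in all. Sparc had 4 mutant peaks with 1.59 kb and 19 WT peaks with 11.1 kb, 11 of them in the gene. All 6 genes, with Col1a1, Loxl3 and P4ha2, and also Serpinh1 had less H3K4me3 coverage in the mutant line, as did 29 of the 40 matrix genes in all. Serpinh1 had 2.10 kb of H3K4me1 in the mutant line and 7.71 kb in the WT line. Col1a1 had 0.489 kb in the mutant line and 7.87 kb in the WT line, but only 0.319 kb of the WT coverage lay within 1 kb of the gene. Loxl3 had 0.484 kb in the mutant line and 8.94 kb in the WT line, and P4ha2 0.369 kb and 6.83 kb. In both windows most of the WT coverage lay away from the gene, with 0.781 kb in Loxl3 and 0.440 kb in P4ha2.

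Collagen IV and VI genes followed the majority with 1 exception. Col4a1 had 0.200 kb of H3K4me1 in the mutant line and 4.70 kb in the WT line, and Col4a2 0.200 kb and 5.09 kb in overlapping windows. Col6a1 had 0.679 kb in the mutant line and 3.48 kb in the WT line. Col6a3, the exception, had 4 mutant peaks with 2.03 kb and 3 WT peaks with 0.970 kb, all inside the gene between 3.76 and 9.56 kb from the start. Of the 4 mutant peaks, 2 lay within the wide mutant H3K4me3 peak. At Col3a1 the mutant line had a single peak of 0.221 kb and the WT line none. Of the 183 WT H3K4me1 peaks near matrix genes, 20 had a mutant peak within 1 kb, or 10.9%, against 11.6% of the whole WT list. For H3K4me3 93 of 138 WT peaks near matrix genes had one, or 67.4%, against 75.7% of the whole list. These peaks come from 1 library and some lie in the windows of a pair of matrix genes, so the shares carry no test.

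At gene ends H3K4me1 was listed in at least 1 line at 8 of the 40 matrix genes, against 1313 of all 21887 protein-coding genes. It was listed at 2 genes in the mutant line alone, P4ha1 and Loxl3, at 6 in the WT line alone, Col1a1, Col1a2, Col6a1, Serpinh1, Pcolce and Loxl4, and at none in both. Of the 1313 protein-coding genes with the mark at a gene end, the background was 29.9% for the mutant line alone and 62.2% for the WT line alone. The mutant peak at P4ha1 was 0.200 kb wide and 4.62-fold enriched over input, and that at Loxl3 0.284 kb and 4.78-fold. The WT peaks were 0.270 kb (Col1a2) to 0.874 kb (Col6a1) wide and 4.37-fold to 5.62-fold enriched. Enrichments are those of the authors and are read within a list. In lists of equal length Pcolce alone of the 6 kept its WT peak.

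H3K27ac was also listed less in the mutant line. It lay at a gene end of 8 genes in the mutant line and 16 in the WT line, of which 3, Plod3, P4ha2 and Serpinh1, had it in both. In at least 1 line 21 of the 40 genes had it, against 7789 of all 21887 protein-coding genes. Of the 21 genes with it in either line, the 5 with it in the mutant line alone and the 13 with it in the WT line alone stand beside backgrounds of 19.2% and 45.3% of 7789 genes. Around the gene, at least 2-fold less was covered at 20 of 38 genes (52.6%), against 44.9% of 16324 covered genes and 43.9% of genes of like coverage. At least 2-fold more was covered at 7 genes (18.4%), against 11.7% and 6.87%. Of the 20 genes within the middle 50% of coverage, 9 had at least 2-fold less and 4 at least 2-fold more. The listed peaks were short, with a median width of 107 bp in the mutant list and 116 bp in the WT list. Some calls therefore rest on 1 short peak. At Lox and at Thbs1 0 kb stood against 1 WT peak of 0.088 kb, and at Lum 1 mutant peak of 0.145 kb stood against 0 kb. In lists of equal length 10 of 36 genes had at least 2-fold less, against 33.2%, and 9 at least 2-fold more, against 20.2%. The sum was 12.70 kb in the mutant line and 22.44 kb in the WT line, which is 56.6%, against 60.7% over all protein-coding genes. The median difference, mutant minus WT, was −0.144 kb, against −0.225 kb in genes of like coverage. Within 1 kb, 26.1% of the 161 WT peaks near matrix genes had a mutant peak, against 30.1% of the whole list. Of the 102 mutant peaks near matrix genes, 42.2% had a WT peak within 1 kb, against 38.8% of the whole list.

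The genes with gene-end H3K27ac in the WT line alone included all 4 basement membrane chains, Col4a1, Col4a2, Col15a1 and Col18a1, of which the first pair share 1 peak. The others were Col1a1, Col5a1, Col6a1, Col6a2, Plod1, P4ha1, Loxl3, Thbs1 and Thbs2. The peaks were short, 0.088 to 0.238 kb wide, and that of Col6a2 had the strongest enrichment, 8.71-fold. In lists of equal length Col15a1, Col5a1 and Thbs1 had gene-end H3K27ac in neither line. In the more significant 50% of each list Col4a1, Col4a2, Col15a1, Col5a1, Col6a1 and Thbs1 had it in neither. Of other collagen IV genes, Col4a5 had it in the mutant line alone, and Col4a3, Col4a4 and Col4a6 in neither. Plod1 had the largest difference in its window, with 0 kb in the mutant line and 1.43 kb in 10 WT peaks. Col12a1 had 0.218 kb in the mutant line and 1.43 kb in the WT line, and 8 of its 10 WT peaks lay in the gene. Loxl3 had 0.669 kb in the mutant line and 1.86 kb in the WT line. Col15a1 had 0 kb in the mutant line and 1.18 kb in the WT line. Plod2 had 0.113 kb in the mutant line and 0.990 kb in the WT line, and Sparc 0.443 kb and 1.23 kb. Each of these 6 genes had gene-end H3K4me3 in both lines except Col12a1, whose nearest peaks lay beyond the limit of 1 kb.

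The opposite direction was held by 5 genes at their ends, Col5a3, Col16a1, Sparc, Dcn and Postn, and by 7 genes over the window, Col3a1, Col6a3, Col14a1, Plod3, Dcn, Lum and Postn. Postn, a matrix protein of wound and tumour stroma, had 0.379 kb in the mutant line and 0 kb in the WT line. A mutant peak of 0.290 kb with 5.40-fold enrichment ran from −1.19 to −0.901 kb relative to its upstream start. Dcn had 0.452 kb in the mutant line and 0.089 kb in the WT line. A mutant peak of 0.145 kb with 9.59-fold enrichment lay between Dcn and Lum (chromosome 10, 97536880 to 97537024) and makes up all the coverage of Lum. Both genes lacked H3K4me3. Col6a3 had 1.01 kb in the mutant line and 0.335 kb in the WT line, Col3a1 0.651 kb and 0.182 kb, and Plod3 0.784 kb and 0.226 kb. At Plod3 the mutant coverage lay mostly near other genes, with 0.089 kb at Plod3 itself.

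**Figure D5:**
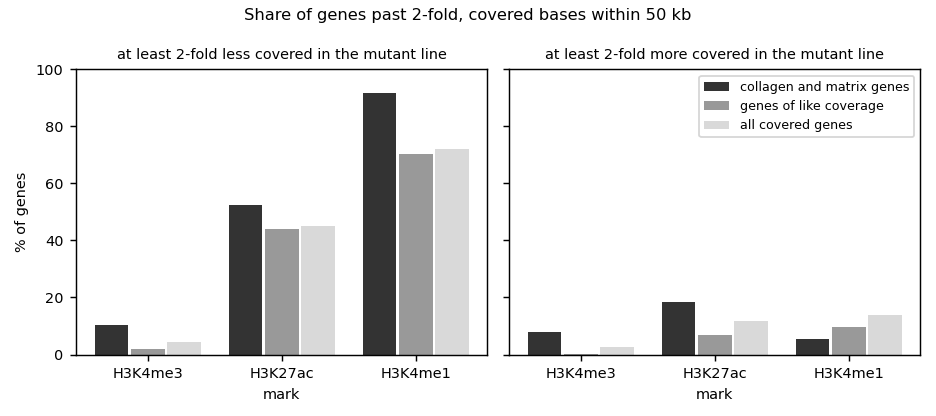
Share of genes (%) with at least 2-fold less (left panel) or more (right panel) coverage in the mutant line within 50 kb of a gene end, by mark, for the matrix genes (black), genes of like coverage (grey) and all covered genes (light grey). For H3K4me1 91.7% of the matrix genes had at least 2-fold less, against 70.3% and 71.9%.

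No matrix gene had a WT H3K27me3 peak at a gene end, against a background of 9.94% of all protein-coding genes. Within 50 kb 16 of 40 genes had one, close to the 42.4% of all genes. A single WT peak, of 0.374 kb at Col6a3, lay inside a matrix gene. The deposited mutant list is named as called against the WT H3K27me3 library, so it would hold regions higher in the mutant line and cannot be set beside the WT list by number. Such regions lay within 50 kb of 6 genes, Col1a1, Col4a2, Lox, Loxl1, Sparc and Lum, against 5.77% of all genes, and at the end of none. They were 0.151 to 0.431 kb wide, with 3.62-fold to 4.77-fold enrichment, and only 1 of the 6 genes kept one within 20 kb.

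Across the 40 genes the differences of the marks went together to a degree. Spearman's rho between the H3K4me3 and H3K4me1 differences, mutant minus WT, was 0.52 over the matrix genes and 0.39 over all protein-coding genes. For H3K27ac and H3K4me1 it was 0.49 against 0.23, and for H3K4me3 and H3K27ac 0.25 against 0.26. These are descriptions across genes, which share libraries and, for some pairs, windows. The gene sets are also unlike in coverage. Of all 21887 genes, 11079 had any H3K4me1 and 16324 any H3K27ac, against 36 and 38 of the 40 matrix genes. Genes with no coverage in either line have a difference of 0 and are included.

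A further 50 genes of the same pathway, among them other collagens, propeptidases, folding enzymes and elastic fibre proteins, were counted in the same way. At gene ends 6 of them had H3K4me3 in the mutant line alone, none in the WT line alone, and 33 in both. The backgrounds were 2.90% for the mutant line alone and 2.35% for the WT line alone, of 12707 genes with the mark. The 6 were Col4a3, Col4a4, Col11a2, Col13a1 and Col27a1, which encode collagen chains, and Adamts3, a procollagen N-propeptidase. Their mutant gene-end peaks were short, 0.647 to 1.3 kb wide, and Col4a3 and Col4a4 are neighbours that share one. Over the 50 genes H3K4me3 summed to 283 kb in the mutant line and 311 kb in the WT line, H3K27ac to 10.9 kb and 19.7 kb, and H3K4me1 to 8.74 kb and 56.0 kb. At least 2-fold less H3K4me1 was covered around 24 of the 30 with any and more around 4, against backgrounds of 71.9% and 14.0%.

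Markers of cell types differed beside these results. Gene-end H3K4me3 was found at 5 of 8 melanocyte lineage genes in the mutant line and 3 of 8 in the WT line. Sox10 and Mlana had it in the mutant line alone, and the pigment enzyme genes Tyr, Tyrp1 and Dct in neither. Of 12 fibroblast markers, 6 had it in the mutant line and 7 in the WT line, Thy1 in the WT line alone, with Fap, Tagln, Tcf21, Dpt and Mfap5 in neither. None of the 12 is among the 40 genes, and Mfap5 is also among the further 50. Around the 12 genes H3K4me3 summed to 63.2 kb in the mutant line and 77.0 kb in the WT line. H3K27ac summed to 3.59 kb and 4.79 kb, and H3K4me1 to 6.71 kb and 22.7 kb. Around the 8 melanocyte lineage genes H3K4me3 summed to 54.4 kb in the mutant line and 47.4 kb in the WT line. H3K27ac there summed to 2.14 kb and 2.96 kb, and H3K4me1 to 1.38 kb and 4.72 kb. Over all protein-coding genes the mutant sums of H3K4me3, H3K27ac and H3K4me1 were 89.5%, 60.7% and 22.2% of the WT sums. Gene-end H3K4me3 was found at 1 of 5 endothelial and 1 of 5 immune markers in either line, and at 2 of 5 keratinocyte markers in the mutant line and 1 of 5 in the WT line. Pecam1, Cdh5, Ptprc, Krt5 and Krt14 had none in either line. The part of cell state or of other cells in the matrix gene results was not tested, and fewer marked cells and less mark per cell cannot be told apart in bulk cultures.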

How the data were processed

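ChIP-seq peak lists of 4 histone marks from 2 mouse melanoma lines, 1 library per line and mark, were analysed as the authors deposited them, in mm10 coordinates, per the submitters' processing notes, which also name FastQC, MultiQC and MACS2. The aligner and its settings, read filters and depth were not given in the sources used here. The deposited H3K4me3 lists carry a score, −10 log10 p, with a smallest value of 50. The other lists carry the deposited fold enrichment over control, a ratio, and −log10 values of p and q from the authors. By their names, H3K27ac, H3K4me1 and WT H3K27me3 were called against the line's own input and mutant H3K27me3 against the WT library. The H3K4me1 and H3K27me3 lists are in the broad-peak layout.

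From these lists, peaks on the 19 autosomes, X and Y were intersected (at least 1 bp) with windows of 50 kb around both ends of RefSeq protein-coding gene models (GRCm38.p6), and covered bases were summed per gene. A gene body between its windows was not counted in covered bases where the gene was longer than both windows. Strand was known for 27 of the 40 genes, so both ends were used. Groups came from the sample titles. With 1 library per group no test was made, and differences are called from 2-fold, or 1.5-fold for widths. Named in full are genes whose gene-end state differed, those with the 6 largest differences and those with the most covered bases per mark; others are described by role. The members and lists were chosen with earlier results of these data known. The script was checked on simulated intervals. Python 3.11.15, numpy 2.4.6, pandas 2.3.3 and scipy 1.17.1 were used. Alternatives were other windows and gene-end distances, start sites, the gene body, lists of equal length, the more significant 50% of each list, and leaving out chromosomes 10 and 19.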

Additional observations from a re-analysis of the deposited data

How the results depend on the processing

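Of the alternative values computed for the main counts and medians, 59 stayed close to the value reported and 38 moved beyond the limit set for them. For H3K4me3, genes with a gene-end peak in the WT line alone numbered 3 as reported, 1 by start sites and 11 in the more significant 50% of each list, and in the mutant line alone 1 and, at 2.5 kb, 0. Genes at least 2-fold less covered numbered 4, but 1 within 100 kb, 7 over the gene body and 8 in the more significant 50%, where those at least 2-fold more covered numbered 1, those with a narrower peak 3 and those with a wider peak 1. The median difference, mutant minus WT, of −1.14 kb became −2.1 kb within 100 kb and −0.489 kb over the gene body. For H3K27ac, genes marked in the mutant line alone numbered 9 at 2.5 kb and 3 in the more significant 50%, and those at least 2-fold less covered 10 in lists of equal length. Its median difference of −0.144 kb became −0.064 kb within 20 kb, −0.263 kb within 100 kb, −0.0605 kb over the gene body, −0.0695 kb in the more significant 50%, −0.0315 kb in lists of equal length and −0.225 kb without chromosomes 10 and 19. For H3K4me1, genes marked in the WT line alone numbered 13 at 2.5 kb, 3 in the more significant 50% and 1 in lists of equal length. Those marked in the mutant line alone numbered 1 at 2.5 kb, by start sites and without chromosomes 10 and 19, and 0 in the more significant 50%. Those at least 2-fold less covered numbered 12 in lists of equal length, and those at least 2-fold more covered 1 within 100 kb and over the gene body, 0 in the more significant 50% and 7 in lists of equal length. Its median difference of −1.31 kb became −2.04 kb within 100 kb, −0.38 kb over the gene body, −0.654 kb in the more significant 50% and 0 kb in lists of equal length. Genes near a region of higher H3K27me3 in the mutant line numbered 1 within 20 kb and 1 in the more significant 50%. The difference at Sparc in H3K27ac changed sign over the gene body, to 0.012 kb, because the WT peaks outside the gene are then not counted. The causes of the other shifts were not tested. Each value rests on 1 library per line, list lengths differ between lines, and depth is unknown, so weak marks absent from a list may be below its threshold. Width alternatives, and the shares over all genes under other settings, were added after seeing the data. No paired analysis was possible because each line had 1 library per mark.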
